A study of Arabidopsis thaliana with 121 samples.

Results

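The 4 genes described here encode the DNA demethylases of Arabidopsis thaliana: ROS1 (AT2G36490), DME (AT5G04560), DML2 (AT3G10010) and DML3 (AT4G34060). They were chosen by locus identifier, and the sense reads of all their annotated transcripts were summed. They are 4 of the 68157 loci counted in the first set of libraries and of the 68159 counted in the second. In the RefSeq annotation of TAIR10.1, ROS1 (named DML1 there) lies at chr2:15307907-15314807 on the minus strand and DME at chr5:1309099-1318520 on the plus strand. DML2 lies at chr3:3081735-3088550 on the minus strand, and DML3 at chr4:16313366-16319426 on the plus strand. The study measured transcripts of cdca7 and ddm1 mutants by 3′-tag RNA-seq, in which each read comes from the 3′ end of a transcript.

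Plants remove 5-methylcytosine by base excision. A demethylase of this family is a glycosylase that cuts out the methylated base and nicks the strand, and repair enzymes then fill the gap with an unmethylated cytosine. ROS1, DML2 and DML3 are best known from vegetative tissue, whereas DME is best known from the central cell of the ovule and the vegetative cell of pollen. ROS1 is known as a sensor of methylation: its promoter is a target of both RNA-directed DNA methylation and ROS1 itself, and in mutants that lose methylation there, such as met1, its transcripts are known to fall. DDM1 is the chromatin remodeller that keeps DNA methylation and silencing at transposable elements (TEs), and the study asked how the paralogues CDCA7a and CDCA7b work with it. Transcripts of the demethylases in these lines therefore address whether the enzymes that remove methylation are expressed differently where methylation is not maintained. DNA methylation itself was not analysed here.

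The stretch just before ROS1 is printed because the results below turn on ROS1 in the ddm1_cdca7b lines, and because methylation upstream of it is known to set its transcript level. It holds the 300 bases before the annotated start of the gene, chr2:15314808-15315107 in TAIR10.1, read 5′ to 3′ on the minus strand, with every CG dinucleotide, the site of CG methylation, in capitals.
ROS1 upstream: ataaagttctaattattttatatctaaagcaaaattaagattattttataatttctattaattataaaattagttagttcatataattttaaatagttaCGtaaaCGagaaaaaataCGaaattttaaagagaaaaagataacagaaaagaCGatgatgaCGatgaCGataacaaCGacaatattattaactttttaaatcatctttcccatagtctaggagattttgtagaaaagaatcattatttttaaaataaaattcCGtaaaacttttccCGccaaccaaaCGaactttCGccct
The motif CG reads the same on both strands, and its matches cannot overlap. ROS1 has 11 CG sites in this window, and 14.5% of 27443 protein-coding genes have as many or more in a window of the same length, where the median is 6. The same window holds 5 CG sites for DME, 3 for DML2 and 4 for DML3.

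In the first set, 39 libraries of 16 genotypes were each made from pooled rosette leaves of 3 plants at 31 days. The wild type was Col_0, and all lines were in the Col-0 background. The single mutants were cdca7a_1, whose T-DNA sits in the CDCA7a promoter and raises its transcripts, cdca7a_2, whose T-DNA interrupts the CDCA7a coding sequence, and the CRISPR lines cdca7b_1 and cdca7b_2. The double mutants were cdca7ab_1, which joins the cdca7a_2 insertion to a CRISPR deletion in CDCA7b, and cdca7ab_2, with CRISPR mutations in both genes. The ddm1-2 allele had been kept heterozygous through backcrosses to Col-0 before homozygotes were isolated. It was sampled at homozygous generation 1 (F2_ddm1), 2 (ddm1_2_G2) and 5 (ddm1_2_G5). The ddm1 cdca7 lines were F2_ddm1_cdca7a_2, ddm1_cdca7a_1, ddm1_cdca7b_1, ddm1_cdca7b_2, ddm1_cdca7ab_1 and ddm1_cdca7ab_2, and the cdca7b and cdca7ab lines among them had been edited in ddm1 plants of generation 2 and sampled at generation 6. In the second set, 82 libraries of 17 genotypes each came from 1 leaf of 1 plant at 28 days. The groups were WT, cdca7_a (the cdca7a_2 insertion), cdca7_b, cdca7_ab (that insertion with a CDCA7b deletion), and primary transformants in the cdca7_a and cdca7_ab backgrounds. The study reports introducing the transgene into cdca7a_2 plants, before both CDCA7 genes had been fully lost. The transformants carried genomic CDCA7a with a C-terminal fluorescent tag (CDCA7), the same gene under the promoter of another accession (p6966), that promoter without a 26-base or a 4-base stretch (p6966_d26nt, p6966_d4nt), or CDCA7a lacking the C terminus (dCter) or the N terminus (dNter) or with the substitutions C183S_C209S or R35A_N42L. The plants called CDCA7_no_YFP were sisters without the transgene, and the dNter transgene was reported as not expressed. Each transformed group joins independent insertions.

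Assigned reads per pool ran from 2087930 to 4439890 around a median of 3635180, and those per single plant from 1194660 to 5206150 around 3268760 (rounded to 6 digits), with plastid transcripts at 5.55 to 43.9% and 4.39 to 22.9% of them. Levels are given as counts-per-million values (CPM) after scaling by the trimmed mean of M-values (TMM). The scaling factors of F2_ddm1_cdca7a_2 replicate 3 (0.427) and cdca7ab_2 replicate 1 (0.491) stood below those of the other libraries of the first set. The leaf markers RBCS1A, RCA and CAB1 were high in every library, and the flower markers AG, AP3 and PI together stayed at or under 3.59 CPM. The pollen gene VGD1, read beside DME, was present at 1.05 to 15.3 CPM in the first set and 2.81 to 94.3 CPM in the second. In the second set, the seed markers CRA1, SESA3 and OLEO1 summed to 2271 CPM in cdca7_ab_C183S_C209S replicate 4, against at most 1.39 CPM in the other plants. The senescence gene SAG12 reached 1486 CPM in cdca7_ab_dCter replicate 5, against at most 48.2 CPM elsewhere. Summed TE transcripts followed the labels: they were 2.88- and 3.12-fold the Col_0 level in cdca7ab_1 and cdca7ab_2, 11.4- to 16.2-fold in the ddm1 groups, and 2.48-fold the WT level in cdca7_ab. Transcripts of CDCA7a were at 12.1 to 14.1 CPM in cdca7a_1 and at or under 1.43 CPM in Col_0. DDM1 (at most 1.59 CPM) and CDCA7b (at most 0.556 CPM) had too few reads in every library of the first set to check those alleles.

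All 4 demethylase genes passed the filter on low counts in both sets. ROS1 had 23 to 123 reads per library in the first set and 3 to 48 in the second. DME had 22 to 120 and 14 to 83. DML2 was thinner, with 3 to 30 and 3 to 70 reads, so that single libraries say little about it. DML3 was at the edge of detection in the first set, with 180 reads over 39 libraries and 4 libraries at 0, and had 6 to 55 reads per plant in the second. Nearly all reads fell on 1 transcript per gene, from 95.8 to 100% of them. Levels are compared between samples and not between genes, since a 3′ tag count depends on the annotated transcript end.

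Over the first set, ROS1 ran from 6.27 CPM in ddm1_cdca7b_2 replicate 1 to 35.2 CPM in Col_0 replicate 3, with a median of 18.5 CPM. DME ran from 10.3 to 40.6 CPM (median 18.9 CPM), and both libraries above 32.6 CPM were those of the lowest scaling factors. DML2 ran from 1.29 to 8.34 CPM (median 4.40 CPM) and DML3 from 0 to 3.89 CPM (median 1.06 CPM). When the 16 genotypes were ordered by mean level, each of the 15 neighbouring pairs overlapped in their libraries, for all 4 genes. Neighbours in such an order are alike by construction, so this does not show that genotypes further apart overlap. Mean ROS1 levels lay between 14.8 and 25.0 CPM in 14 genotypes, and the lowest places were held by ddm1_cdca7b_1 at 11.2 ± 3.00 CPM (SD, n = 3) and ddm1_cdca7b_2 at 7.94 ± 1.74 CPM (SD, n = 3).

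**Figure D1:**
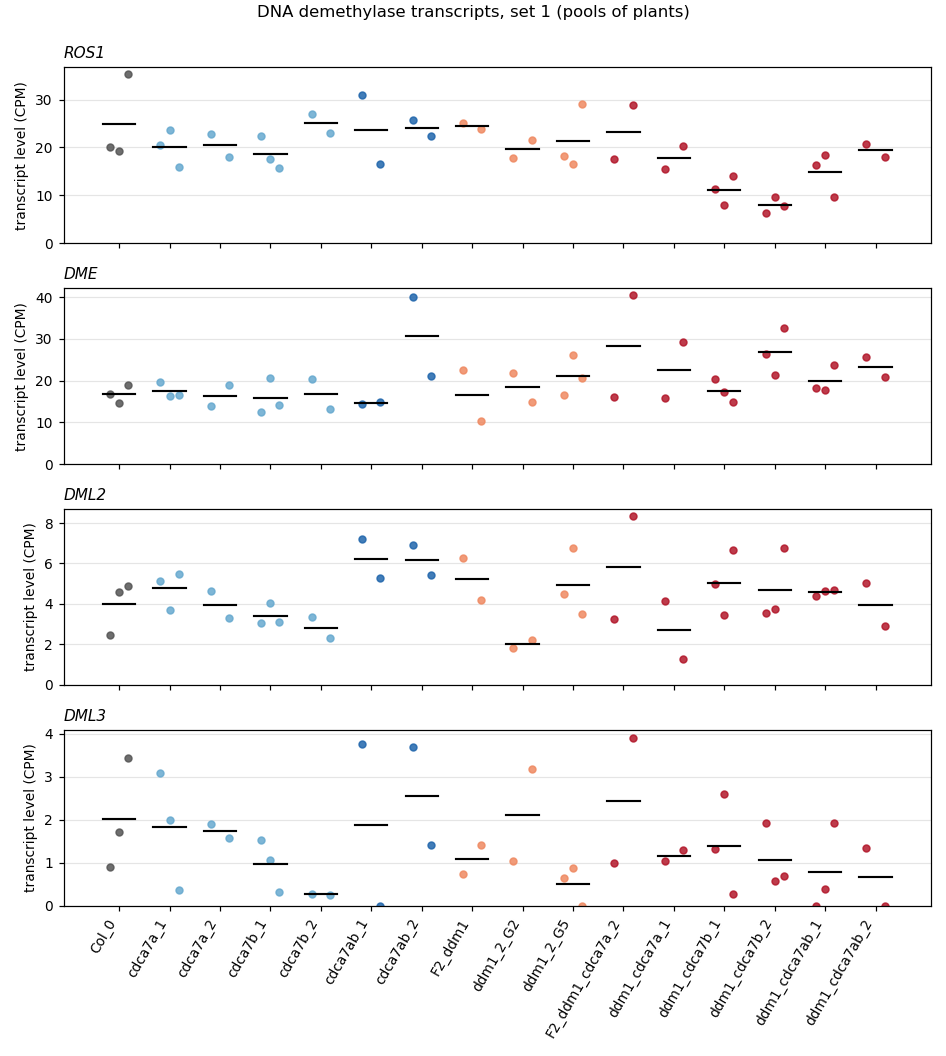
Transcript level in CPM (vertical axis, 1 panel per gene, axes from 0) for each library of the first set, by genotype. Points are libraries and black bars are genotype means. ROS1 lies at 6.27 to 14.1 CPM in the 6 ddm1 cdca7b libraries. For the other 3 genes, genotypes next to each other in mean level overlap, but some pairs are apart. DME in ddm1_cdca7b_2 (21.2 to 32.6 CPM) lies above Col_0 (14.6 to 18.9 CPM). DML2 in ddm1_2_G2 (1.80 and 2.22 CPM) lies below Col_0 (2.46 to 4.87 CPM).

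The first question was whether loss of CDCA7 proteins moved the demethylases. In the double mutants, none of the 4 genes was called, where a call needs an adjusted p of at most 0.1 and a change of at least 1 on the log2 scale, and 1.54% of all 17943 tested features were called. ROS1 stood at 30.9 and 16.4 CPM in cdca7ab_1 and at 25.7 and 22.3 CPM in cdca7ab_2. The 3 Col_0 libraries were at 20.1, 19.2 and 35.2 CPM, so the groups overlapped, with Col_0 holding the highest library. The mean of the double mutants differed from Col_0 by a log2 fold change of -0.06 (SE 0.27, 95% interval -0.61 to 0.49, adjusted p = 1 by edgeR's quasi-likelihood test). P-values were adjusted over all features by the Benjamini-Hochberg procedure. This interval leaves out a change of ROS1 by 1 log2 unit in either direction. DME had a log2 fold change of 0.33 (SE 0.30), DML2 of 0.64 (SE 0.36) and DML3 of 0.05 (SE 0.91). The interval of DML3, -1.82 to 1.92, shows that its reads could not resolve a change of a few-fold.

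DME was read in each double mutant apart. It stood at 14.4 and 15.0 CPM in cdca7ab_1, at 40.0 and 21.2 CPM in cdca7ab_2, and at 16.8, 14.6 and 18.9 CPM in Col_0. The fitted log2 fold change of cdca7ab_2 was 0.85 (SE 0.35, adjusted p = 0.647 by edgeR's quasi-likelihood test), and 0.34 without replicate 1, the library whose scaling factor was low.

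The single comparisons with Col_0, 6 of cdca7 lines and 3 of ddm1 groups, called none of the 4 genes, against 25.6% of features called in at least 1 of these 9. For ROS1 the log2 fold changes of the single cdca7 mutants were -0.31 (cdca7a_1, SE 0.29), -0.28 (cdca7a_2, SE 0.32), -0.42 (cdca7b_1, SE 0.29) and 0.01 (cdca7b_2, SE 0.32). The line that overproduces CDCA7a transcripts lay among the disrupted lines, and none of the 4 passed. For DML2 these 4 values ran from -0.47 (cdca7b_2, SE 0.46) to 0.28 (cdca7a_1, SE 0.39).

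The next question was whether the demethylases moved in ddm1, where TE transcripts were highest. Over F2_ddm1, ddm1_2_G2 and ddm1_2_G5 together, 0 of the 4 genes were called against Col_0, where 15.6% of features were. ROS1 stood at 25.1 and 23.9 CPM in generation 1. It stood at 17.8 and 21.6 CPM in generation 2 and at 18.3, 16.4 and 29.1 CPM in generation 5. These 7 libraries, at 16.4 to 29.1 CPM, overlapped the 3 Col_0 libraries. The log2 fold change of ROS1 was -0.19 (SE 0.24, 95% interval -0.70 to 0.31, adjusted p = 0.627 by edgeR's quasi-likelihood test). Its sign rests on Col_0 replicate 3, without which the value was 0.14. DME had a log2 fold change of 0.15 (SE 0.27), DML2 of -0.07 (SE 0.34) and DML3 of -0.90 (SE 0.90). Between generations 5 and 1, the log2 difference of ROS1 was -0.21 (SE 0.33) and that of DME 0.35 (SE 0.37), neither past the threshold. The summed leaf markers moved with ddm1, from 5812 to 22718 CPM in Col_0 and the cdca7 lines to 16828 to 46757 CPM in all libraries carrying ddm1, and their part in these comparisons was not tested. In bulk leaves, fewer cells of a type and less RNA per cell cannot be told apart.

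Double mutants were also set against ddm1_2_G2, the ddm1 group of the closest generation. DML2, 1 of the 4 genes, was called, where 9.83% of features were. DML2 stood at 7.21 and 5.27 CPM in cdca7ab_1 and at 6.90 and 5.41 CPM in cdca7ab_2. Both ddm1_2_G2 libraries lay below all 4 of these, at 1.80 and 2.22 CPM, from 7 reads each. The log2 fold change was 1.60 (SE 0.46, adjusted p = 0.0232 by edgeR's quasi-likelihood test), with 1.62 (adjusted p = 0.0483) for cdca7ab_1 and 1.59 (adjusted p = 0.0696) for cdca7ab_2. The call was lost without ddm1_2_G2 replicate 1 (log2 fold change 1.45, adjusted p = 0.162) or replicate 3 (1.75, adjusted p = 0.127). DML2 was at 6.29 and 4.22 CPM in F2_ddm1 and at 4.48, 6.76 and 3.50 CPM in ddm1_2_G5, within or above the Col_0 range of 2.46 to 4.87 CPM. Against the mean of all 3 ddm1 groups, a comparison chosen after these values were seen, the log2 fold change of DML2 in the double mutants was 0.71 (SE 0.30, adjusted p = 0.118). ROS1 differed from ddm1_2_G2 by 0.27 (SE 0.31) on the log2 scale and DME by 0.19 (SE 0.34).

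When cdca7 mutations were combined with ddm1, ROS1 had the lowest unadjusted p-values of the 4 genes. Each of the 6 ddm1 cdca7 lines was set against the ddm1 group nearest in generation, and 0 of the 4 genes were called in any of these comparisons, where 0.0446% of features were. Both differences of the 4 genes that had an unadjusted p under 0.05 were in ROS1. Between 382 and 2129 of the 17943 features had such a p in each of these comparisons. The count for the 4 genes is near that share and by itself is no result about them. In ddm1_cdca7b_2 against ddm1_2_G5 the log2 fold change of ROS1 was -1.41 (SE 0.31, 95% interval -2.04 to -0.78). Its adjusted p was 0.213 by edgeR's quasi-likelihood test, and it passed without the filter on low counts (adjusted p = 0.00612) and by the DESeq2 Wald test (adjusted p = 0.0382). In ddm1_cdca7b_1 the log2 fold change was -0.92 (SE 0.30, 95% interval -1.53 to -0.31, adjusted p = 1).

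The libraries themselves show the pattern. ROS1 was at 11.3, 8.09 and 14.1 CPM in ddm1_cdca7b_1, from 43, 28 and 53 reads. It was at 6.27, 9.75 and 7.80 CPM in ddm1_cdca7b_2, from 23, 34 and 23 reads. All 6 libraries lay below the 7 ddm1 libraries, and of the other 33 libraries of the set 32 were at 15.6 CPM or more. The exception was ddm1_cdca7ab_1 replicate 3 at 9.63 CPM. Both other replicates of that line were at 16.3 and 18.5 CPM, and ddm1_cdca7ab_2 was at 20.7 and 18.1 CPM. Lines with a cdca7a allele in ddm1 were at 15.6 and 20.2 CPM (ddm1_cdca7a_1) and at 17.7 and 28.9 CPM (F2_ddm1_cdca7a_2).

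The following comparisons were chosen after these levels were seen and describe them. Against the mean of the 3 ddm1 groups, ROS1 fell in the mean of both ddm1_cdca7b lines by 1.20 on the log2 scale (SE 0.21, 95% interval -1.63 to -0.77, adjusted p = 0.0148 by edgeR's quasi-likelihood test), and it was called together with 0.184% of features. Leaving out any of the 13 libraries involved kept the call, with log2 fold changes of -1.30 to -1.10 and adjusted p up to 0.0669. Against ddm1_2_G5 alone, the group nearest in generation, the mean of both lines gave -1.17 (SE 0.26) and did not pass (adjusted p = 0.251). Against Col_0, ROS1 was the 1 member of the 4 called in any of the 6 ddm1 cdca7 lines. Of all features, 26.7% were called in at least 1, so this count is no more than the share over all features. It fell in ddm1_cdca7b_1 by 1.15 (SE 0.30, adjusted p = 0.0066) and in ddm1_cdca7b_2 by 1.64 (SE 0.30, adjusted p = 0.00022) on the log2 scale, in comparisons that called 15.8% and 18.7% of features. The size of the first fell below the log2 fold change of 1 that a call needs without Col_0 replicate 3 (-0.81, adjusted p = 0.07) or ddm1_cdca7b_1 replicate 2 (-0.98, adjusted p = 0.0399). These comparisons share their ddm1_cdca7b libraries and are not independent of each other.

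The ddm1_cdca7ab lines also carry cdca7b mutations. ROS1 in the ddm1_cdca7b lines differed from them by -0.84 on the log2 scale (SE 0.23, 95% interval -1.31 to -0.38). The interval leaves out 0, but the difference did not pass after adjustment over all features (adjusted p = 0.731 by edgeR's quasi-likelihood test). This comparison too was chosen after the levels were seen. The mean of the ddm1_cdca7ab lines differed from the mean of ddm1 by -0.36 (SE 0.21, adjusted p = 0.843). The cdca7b mutations alone gave -0.20 against Col_0 (SE 0.26, adjusted p = 0.722). The difference between the cdca7b effect within ddm1, set against ddm1_2_G5, and that in Col-0 was -0.96 on the log2 scale (SE 0.37, 95% interval -1.71 to -0.21, adjusted p = 0.71). An effect of cdca7b particular to the ddm1 background therefore did not pass. The CDCA7b mutations edited in ddm1 also differ from those of cdca7b_1 and cdca7b_2. The other 3 genes did not follow ROS1 in the ddm1_cdca7b lines, where the log2 fold changes against the mean of ddm1 were 0.21 for DME (SE 0.22), 0.37 for DML2 (SE 0.28) and 0.21 for DML3 (SE 0.80), none past the threshold. TE transcripts, at 14.9- to 15.3-fold the Col_0 level in these lines, lay within the range of the ddm1 groups. The leaf markers, at 28273 to 42536 CPM, overlapped those of the ddm1 groups, at 31512 to 46757 CPM. The edited lines were 1 generation further on than ddm1_2_G5. The ddm1_cdca7ab lines were at that same generation, with mean ROS1 levels of 14.8 and 19.4 CPM. No ddm1 group without a cdca7 mutation was sampled there, and the part of the generation step was not tested.

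DME in F2_ddm1_cdca7a_2 was at 16.1 CPM in replicate 2 and 40.6 CPM in replicate 3, the library with the lowest scaling factor. Its log2 fold change against Col_0 was 0.73 (SE 0.36, adjusted p = 0.182), and -0.06 without replicate 3. In ddm1_cdca7b_2, DME was at 26.5, 21.2 and 32.6 CPM against 16.8, 14.6 and 18.9 CPM in Col_0. These groups did not overlap, and the log2 fold change of 0.67 (SE 0.32, adjusted p = 0.137) did not pass edgeR's test. It passed without the 2 libraries of lowest scaling factor, which belong to neither group (0.69, SE 0.28, adjusted p = 0.0797).

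**Figure D2:**
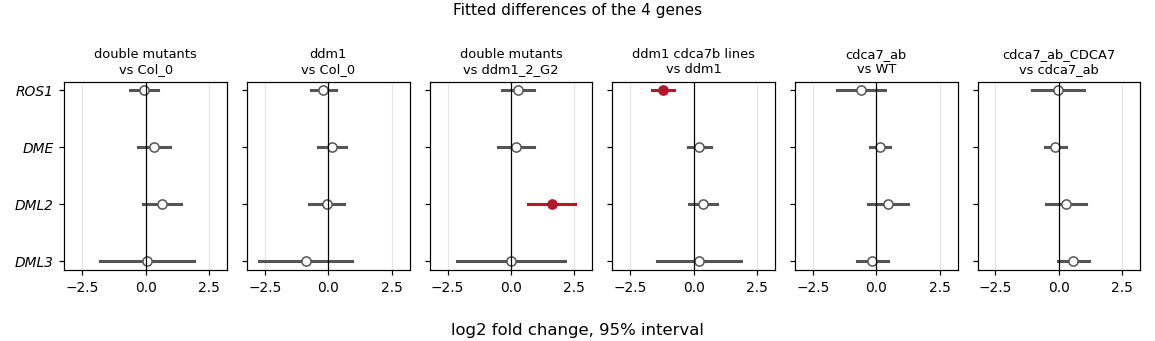
Log2 fold change (horizontal axis) of the 4 genes in 6 comparisons. Points are fitted values and lines 95% intervals; filled red points had an adjusted p of at most 0.1. Red marks DML2 in double mutants against ddm1_2_G2 (1.60) and ROS1 in ddm1 cdca7b lines against ddm1 (-1.20). The comparison of ddm1 cdca7b lines with ddm1 was chosen after the levels were seen. The intervals of DML3 are the widest in the 4 comparisons of the first set.

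Genes that act with the demethylases were read from lists chosen by function. Of 13 repair enzymes and other glycosylases, 12 were tested. In the double mutants none of the 12 passed against Col_0 (1.57% of features did), with a median log2 fold change of 0.04 beside -0.01 over all features. In ddm1 against Col_0, 4 of the 12 rose, where 14.5% of features passed upward, and 1 fell, where 12.9% passed downward. The median of the list was 0.08 beside -0.05 over all features. ZDP, the 3′ phosphatase that cleans the nick left by ROS1, rose by 1.97 on the log2 scale (SE 0.74, adjusted p = 0.0406). It was at 0.447, 0.287 and 0.860 CPM in Col_0, from only 2, 1 and 3 reads. In all 7 ddm1 libraries ZDP was at 1.41 to 4.44 CPM, from 3 to 14 reads, with no overlap. Libraries without ddm1 ran from 0.157 CPM (cdca7a_2 replicate 2) to 3.06 CPM (cdca7b_2 replicate 2). PARP2 (AT4G02390), a poly(ADP-ribose) polymerase, rose by 1.45 (SE 0.49, adjusted p = 0.0321), and FPG1, a glycosylase for oxidised bases, rose by 1.21 (SE 0.39, adjusted p = 0.0278). LIG1, the ligase that seals the nick, rose by 0.56 (SE 0.22, adjusted p = 0.0766). APE2, an endonuclease at abasic sites, fell by 0.57 (SE 0.22, adjusted p = 0.0654). Against ddm1_2_G2, 2 of the 12 fell in the double mutants, where 9.81% of features passed downward: ZDP by 1.97 (SE 0.75, adjusted p = 0.0809) and PARP2 by 2.94 (SE 0.64, adjusted p = 0.00104). Both rest on few reads, and both reached 10 reads almost only in libraries carrying ddm1. The exceptions were cdca7b_2 replicate 2 (11 reads of ZDP) and cdca7a_1 replicate 3 (12 reads of PARP2). ZDP and PARP2 thus passed the filter on low counts mainly through libraries where they were high. Their tests against Col_0 and against ddm1_2_G2 are not independent of that. Double mutant libraries held 2 to 4 reads of ZDP and 2 or 3 of PARP2. The ddm1_2_G2 libraries held 7 and 14 reads of ZDP and 18 and 17 of PARP2.

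Of 10 genes for the recruitment and maturation of ROS1, 8 were tested, and none passed in the double mutants or in ddm1 against Col_0. The most abundant were AE7, which helps to load the iron-sulphur cluster of ROS1, at 38.3 ± 9.81 CPM in Col_0 (SD, n = 3), and ARP6, a subunit of the SWR1 chromatin remodeller, at 13.2 ± 0.874 CPM (SD, n = 3). Their log2 fold changes in ddm1 were -0.20 (SE 0.19) and 0.10 (SE 0.24). In the ddm1_cdca7b lines, 1 of the 8 rose against Col_0 in ddm1_cdca7b_1 and 2 in ddm1_cdca7b_2. Over all features 13.9% and 15.5% passed upward, and with only 8 genes these counts are near those shares. The genes that rose are named here after their values were seen, and a link with ROS1 was not tested. MBD7, a methyl-DNA-binding protein of the ROS1 recruitment complex, rose by 0.76 (SE 0.26, adjusted p = 0.0415) and 0.84 (SE 0.26, adjusted p = 0.02), and ROS3, an RNA-binding protein, rose by 0.73 in ddm1_cdca7b_2 (SE 0.29, adjusted p = 0.0746). Among the DNA methyltransferases, 4 of 5 were tested, and MET1, which copies CG methylation to new strands, rose in ddm1 by 1.42 on the log2 scale (SE 0.47, adjusted p = 0.0341). Its levels overlapped, at 1.34 to 6.59 CPM in Col_0 and 6.46 to 12.7 CPM in the ddm1 libraries. None of these 4 passed in the double mutants. Of 8 known target loci of ROS1 or DME, 2 were tested. RLP43, a receptor-like protein gene, and FWA, an imprinted homeobox gene that DME activates in the central cell, did not pass in the double mutants or in ddm1. In cdca7_ab against WT, none of the 10 repair genes, 8 recruitment genes, 4 methyltransferases and 1 target locus tested in the second set passed.

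FWA was read beside ROS1 in the ddm1_cdca7b lines. It was at 19.1, 21.2 and 14.9 CPM in ddm1_cdca7b_2 and passed against Col_0 (adjusted p = 0.000501 by edgeR's quasi-likelihood test). In ddm1_cdca7b_1 it was at 16.3, 0.289 and 1.86 CPM (adjusted p = 0.00496). No read of FWA was found in Col_0, where 3 reads would be 0.670 to 0.861 CPM, so no fold change is given. FWA passed the filter on low counts only through libraries where it was high, in ddm1_cdca7b_1, ddm1_cdca7b_2 and ddm1_cdca7ab_2. Its tests in the ddm1_cdca7b lines are not independent of that, and its levels there are given as a description. In the 7 ddm1 libraries FWA was at 0 to 1.60 CPM. FWA was also present in ddm1_cdca7ab_2, at 6.38 and 2.65 CPM from 24 and 11 reads, where ROS1 was at 20.7 and 18.1 CPM, and at 0, 1.54 and 0 CPM in ddm1_cdca7ab_1. The replicate of ddm1_cdca7b_1 with high FWA had a ROS1 level of 11.3 CPM, between those of the other replicates.

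The second set asked the same of single plants, and of plants carrying CDCA7a constructs. In cdca7_ab against WT, 0 of the 4 genes were called, where 1.42% of features were, and none passed, where 1.44% did. ROS1 was at 16.5, 10.1, 7.72, 9.37 and 5.64 CPM in the 5 WT plants. It was at 8.99, 9.25, 4.86 and 3.12 CPM in the 4 cdca7_ab plants. The groups overlapped, and the log2 fold change was -0.60 (SE 0.48, 95% interval -1.57 to 0.36, adjusted p = 1 by edgeR's quasi-likelihood test). This interval is wide enough to hold the difference seen in the ddm1_cdca7b lines. DME was measured more tightly, at a log2 fold change of 0.14 (SE 0.20, 95% interval -0.25 to 0.52). DML2 gave 0.47 (SE 0.40) and DML3 -0.15 (SE 0.31).

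Complementation by CDCA7a, introduced before both CDCA7 genes were lost, gave no difference in the 4 genes that passed. Against cdca7_ab, plants with the CDCA7 construct called 0.942% of features and none of the 4 genes. ROS1 was at 12.0, 5.30, 2.47, 9.58 and 3.84 CPM in these 5 plants, with a log2 fold change of -0.03 (SE 0.51). DML3 had the largest log2 fold change of the 4, 0.57 (SE 0.31, adjusted p = 0.816). TE transcripts in the same plants were 1.01-fold those of WT, against 2.48-fold in cdca7_ab. Over all 17 comparisons of the second set, no gene of the 4 was called, against 1.87% of features called in at least 1, and none reached an unadjusted p under 0.05. The log2 fold changes spanned -0.82 to 1.03 for ROS1, -0.34 to 0.30 for DME, -0.84 to 0.75 for DML2 and -0.44 to 0.60 for DML3. The highest for ROS1 was that of the cdca7_ab_CDCA7_no_YFP plants, which stood at 6.97 and 20.2 CPM (SE 0.62).

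The zinc-finger substitution C183S_C209S and the substitution R35A_N42L gave the next highest ROS1 values among the cdca7_ab constructs, with log2 fold changes of 0.84 (SE 0.45, adjusted p = 0.696) and 0.79 (SE 0.47, adjusted p = 1) against cdca7_ab. ROS1 ran from 6.44 to 17.5 CPM in the 7 C183S_C209S plants (median 12.8 CPM) and from 8.00 to 16.7 CPM in the 6 R35A_N42L plants (median 10.1 CPM). Both ranges overlapped that of cdca7_ab. Without the plant with seed markers, the value for C183S_C209S was 0.72 (SE 0.46). In cdca7_ab_dCter, the plant with high SAG12 held the lowest ROS1 level of its group (2.09 CPM) and the highest DML2 level of all 82 plants (14.6 CPM). The log2 fold change of DML2 for dCter was 0.37 (SE 0.36), and 0.08 without that plant.

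**Figure D3:**
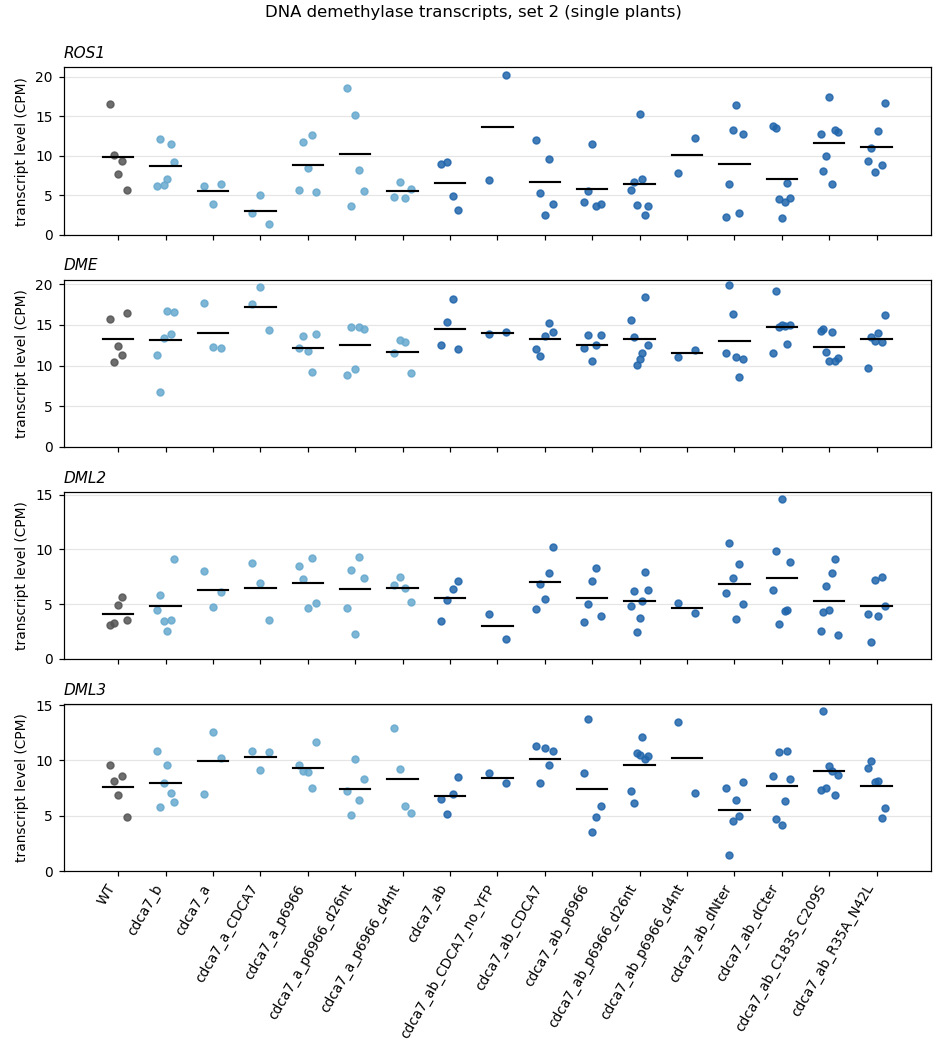
Transcript level in CPM (vertical axis, 1 panel per gene, axes from 0) for each plant of the second set, by genotype. Points are plants and black bars are genotype means. ROS1 spreads from 1.35 to 20.2 CPM and DME from 6.77 to 19.9 CPM. No genotype stands clear of those next to it in order of mean level, for any gene.

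Of the 4 genes, ROS1 varied most between plants of one genotype. The biological coefficient of variation, the spread that remains once counting error is taken out, was 45.6% for ROS1 in the second set. The median of the 500 genes nearest to it in level was 22.7%, and 82% of them were lower. DME was at 14.3%, with 15.6% of its neighbours lower, DML2 at 32.7% and DML3 at 24.5%. In the first set, where each library joins 3 plants, ROS1 was at 23.1% beside a median of 20.5% for its neighbours. The lowest ROS1 level, 1.35 CPM, came from 3 reads in cdca7_a_CDCA7 replicate 3, and the next was 2.09 CPM. For all 4 genes the plants of each neighbouring pair of genotypes, ordered by mean, overlapped, which says nothing of genotypes further apart in that order.

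Since TE transcripts differed between plants of the same construct, each gene was also fitted against the summed TE level of the plant. In the 51 plants of the cdca7_ab background, the slope of ROS1 was 0.37 log2 units per log2 unit of TE level (SE 0.18, 95% interval 0.02 to 0.73) and did not pass after adjustment (adjusted p = 0.498). None of the 4 genes passed, where 2.08% of features did. With the construct as a factor the slope of ROS1 was 0.22 (SE 0.32). In the 20 plants of the cdca7_a background, whose TE level spanned 0.543 log2 units, the slope of ROS1 was 2.31 (SE 1.17, adjusted p = 0.237), falling to 1.03 (SE 1.23) with the construct as a factor and 1.66 (SE 2.71) with the TE level taken from TEs past the filter. In that background none of the 4 genes passed in the first of these fits, where 5.15% of features did. The slopes of DME, DML2 and DML3 in the cdca7_ab background were -0.03 (SE 0.06), -0.18 (SE 0.14) and -0.11 (SE 0.12).

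**Figure D4:**
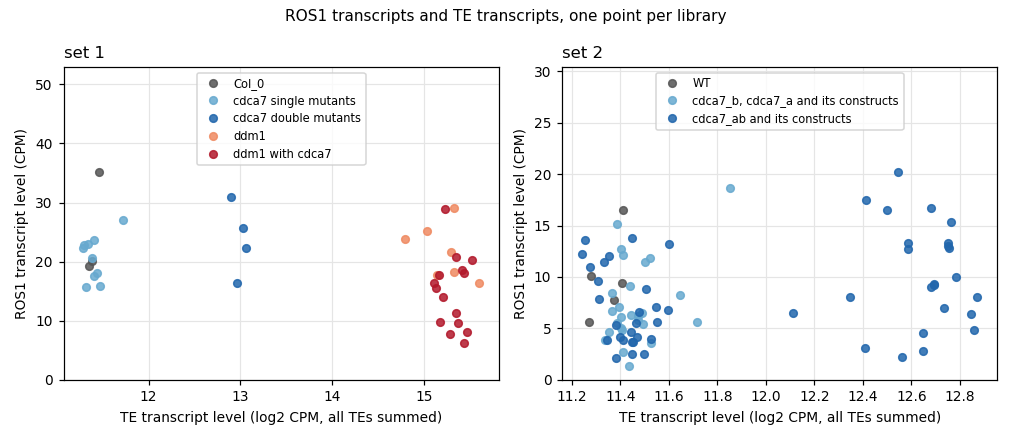
ROS1 level in CPM (vertical axis, from 0) against the summed TE level in log2 CPM (horizontal axis), 1 point per library, in the first set (left) and the second (right). In the first set the ROS1 levels of ddm1 libraries (16.4 to 29.1 CPM) overlap those of Col_0 (19.2 to 35.2 CPM) although their TE level is at least 11.4-fold higher on average. In the second set high and low ROS1 levels occur at both ends of the TE level.

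The genes whose genotype means followed ROS1 most closely over the 16 genotypes of the first set, among 16137 nuclear genes, were AT5G18590 (Pearson r = 0.84), SEP1 (AT5G15800, r = 0.83) and AME3 (AT4G32660, r = 0.81). Over the 17 genotypes of the second set the same genes had r of -0.48, -0.81 and -0.32. The likeness was therefore not carried from one set to the other. Among the 4 demethylases themselves, r with ROS1 over the first set was -0.27 for DME, -0.01 for DML2 and 0.15 for DML3. Over the second set it was -0.55, -0.62 and -0.16. These values describe genotype means that share libraries and scaling.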

How the data were processed

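Libraries were 3′-tag RNA-seq of rosette leaves. Per the study's methods, the authors collapsed duplicates by unique molecular identifier, mapped reads with STAR 2.7.11a and assigned them to AtRTD3 transcripts and TAIR10 TEs with Salmon 1.10.1, sense and antisense apart (versions from the submitters' processing notes). The deposited values used here were these expected counts, estimated reads per transcript that need not be whole. The deposited RPM values, a signal scaled to depth by the authors, were used as an alternative for levels; they differed by at most 0.00289 from RPM recomputed from the sense counts of the 4 genes. The files hold no coordinates, so positions and the upstream sequence were read from RefSeq TAIR10.1.

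Counts were summed per locus and rounded. Features reaching 10 reads in 3 or more libraries (17943 and 17510) were scaled by TMM and fitted with edgeR 4.0.16 (R 4.3.3), with all genotypes of a set in 1 quasi-likelihood fit and Benjamini-Hochberg adjustment over all features. The threshold to pass was an adjusted p of 0.1, and a call also needed a log2 fold change of 1 or more in size. Sets were fitted apart. The study states independent replicates and randomized growth, but the labels do not say how the pools of a genotype were separated, so p-values measure the spread between these libraries. Intervals cover counting error and that spread. The fit and its test were tried on simulated counts for ddm1_2_G5 against Col_0 and for cdca7_ab against WT. The other steps were not tried on simulated data. Alternatives were DESeq2 1.42.0 and its size factors, no filter, a replicate block, the compared genotypes alone, the top transcript, organelle transcripts removed, an adjusted p of 0.05, and each replicate left out.

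The members, lists and tests were chosen with earlier results of these data known. Besides the 4 members, genes were named where they passed in an averaged comparison, else as the most abundant of their list, or as the 3 genes most like ROS1 by genotype means; FWA in the ddm1_cdca7b lines was named after its values were seen. The deposited antisense values were not used in any comparison.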

Additional observations from a re-analysis of the deposited data

Results flagged for a closer look

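The 4 genes were each tested in every genotype of the second set with 4 or more plants, 52 tests in all, and in 3 of them a plant stood apart from the rest by Dixon's test. Chance alone sets a plant apart in 1 of 20 such tests. DML3 was at 14.5 CPM (34 reads) in cdca7_ab_C183S_C209S replicate 2, whereas the other 6 plants of the group were at 6.86 to 9.50 CPM. ROS1 was at 11.5 CPM (26 reads) in cdca7_ab_p6966 replicate 3, whereas the other 4 plants were at 3.69 to 5.56 CPM. ROS1 was at 15.3 CPM (41 reads) in cdca7_ab_p6966_d26nt replicate 4, whereas the other 6 plants were at 2.54 to 7.07 CPM. The same plant stood apart in its summed TE level, at 12.77 log2 CPM against 11.41 to 11.60 log2 CPM in the other 6, and the part of that in its ROS1 level was not tested. The TE level of the p6966 plant, 11.33 log2 CPM, was the lowest of its group. All 3 values were the highest of their group.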

How the results depend on the processing

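Of 514 values of 46 results under an alternative, 471 kept their direction and their side of the threshold. The call of ROS1 in the mean of the ddm1_cdca7b lines against the mean of ddm1 was kept under all 9 alternatives and 13 left-out libraries that were run. That comparison was chosen after the levels were seen. The planned comparisons of each ddm1_cdca7b line with ddm1_2_G5 did not pass in the main fit. ROS1 in ddm1_cdca7b_2 against ddm1_2_G5 passed without the filter on low counts (-1.41, adjusted p = 0.00612) and by DESeq2 (-1.40, adjusted p = 0.0382). DML2 in double mutants against ddm1_2_G2 did not pass with only the compared genotypes fitted (1.63, adjusted p = 0.147), where fewer libraries set the spread. Without the filter, cdca7ab_1 (1.63, adjusted p = 0.116) and cdca7ab_2 (1.59, adjusted p = 0.179) against ddm1_2_G2 also missed, as did cdca7ab_2 without the 2 libraries of lowest scaling factor (1.42, adjusted p = 0.203) and at the stricter threshold of 0.05 (1.59, adjusted p = 0.0696). Values near 0 changed sign: DML3 in double mutants against Col_0 (0.05) became -0.036 with a replicate block, -0.0057 for the top transcript and -0.31 without those 2 libraries. The DML3 slope in the cdca7_ab background (-0.11) became 0.19 with the construct as a factor. DME in F2_ddm1_cdca7a_2 against Col_0 was not near 0, at 0.73, and became -0.037 without the 2 libraries of lowest scaling factor. These include replicate 3 of that line, which left 1 library there. The cause was not tested. The mean DME level in Col_0 was 19.0 RPM as deposited and 16.8 CPM.

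With each replicate left out, ROS1 ran from -0.32 to 0.27 in double mutants and from -0.35 to 0.14 in ddm1 against Col_0, and from -0.33 to 0.24 in cdca7_ab_CDCA7 against cdca7_ab. DML2 against ddm1_2_G2 ran from 1.45 to 1.75 in the mean of double mutants, 1.38 to 1.87 in cdca7ab_1 and 1.42 to 1.79 in cdca7ab_2, with adjusted p up to 0.225. DML3 in double mutants ran from -2.79 to 0.66, DME in ddm1 from -0.076 to 0.30, DML2 in ddm1 from -0.33 to 0.10, DME in F2_ddm1_cdca7a_2 from -0.063 to 1.27 (adjusted p = 0.0387 without its replicate 2) and ROS1 in ddm1_cdca7ab_1 from -0.94 to -0.42 (adjusted p 0.0934 and 0.0968 without Col_0 replicates 1 and 2), all against Col_0. The lowest DML3 value was without cdca7ab_1 replicate 2, which held all DML3 reads of that line. Same-numbered libraries did not deviate together (mean r -0.0033 among the pools and 0.0024 among the plants), so the replicate block pairs nothing here, and it changed no call of these results. DML3 had no value with only the compared genotypes fitted, since it did not pass the filter there. Read numbers limit DML3 in the first set and DML2 in both.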

Other observations

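The plant-to-plant differences of ROS1 within genotypes of the second set were described further. After the genotype means were taken out, the 3 of 16212 genes whose log2 level over 82 plants ran most closely with that of ROS1 were ACBP6 (r = 0.74), SEOa (r = 0.74) and AT1G67870 (r = 0.70). The 3 that ran most strongly the opposite way were CYP71B36 (r = -0.67), SULTR4;2 (r = -0.67) and SDI1 (r = -0.66). In the 39 pools of the first set the same measure was 0.11 for ACBP6, 0.18 for SEOa, -0.14 for AT1G67870, 0.14 for SULTR4;2 and 0.06 for SDI1. These values share libraries, scaling and depth and are given without a test.

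Within genotypes of the second set, r between DML2 and DML3 was -0.43 (82 plants), and in the first set it was 0.25 (39 pools, with few DML3 reads).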
